A study of Mus musculus with 6 samples.

Results

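The 10 genes of the mammalian circadian clock and its output arms described here were measured in mouse peritoneal macrophages: Nfil3, the PAR bZIP genes Dbp and Tef, Bhlhe40 and Bhlhe41, Per1 and Per2, Nr1d1 and Nr1d2, and Cry1. All 10 were found, by Ensembl identifier and GENCODE symbol, among the 25044 genes of the count table. Nfil3 was selected on a measured value, its strong rise with the drug trametinib in these same libraries, so its change is described here without a test. The other 9 were included because they belong to the clock or share DNA targets with NFIL3.

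The cells came from wild type C57BL/6 mice aged 8 weeks. The animals received thioglycollate, which irritates the peritoneum and recruits macrophages that arise from monocytes, and the cavity was washed out 3 days later. Adherent cells were cultured for 24 h and given vehicle (DMSO) or 100 nM trametinib, which inhibits the MEK kinases upstream of ERK. After 2 h every culture received LPS, a bacterial trigger of Toll-like receptor signalling, at 100 ng/ml for 12 h, and there were 3 libraries per group. No culture went without LPS and only this 1 time after LPS was sampled, so neither the response to LPS nor a daily rhythm was measured. The labels name 3 mice for the study and do not tie libraries to animals. The p values therefore set each group difference against the spread between these libraries.

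In the clock, the activators CLOCK and BMAL1 (the product of Arntl) bind E-box elements and drive the Per, Cry, Nr1d and PAR bZIP genes. PER and CRY proteins then repress CLOCK and BMAL1, the REV-ERB receptors encoded by Nr1d1 and Nr1d2 repress Arntl and Nfil3, and the BHLHE40 and BHLHE41 repressors compete for E-boxes. NFIL3, a repressor, and the activators DBP and TEF bind the same D-box element, so that they oppose each other at shared targets. In macrophages some of these factors are known for limiting inflammatory genes: NFIL3 restrains Il12b, and the REV-ERB receptors restrain chemokine and protease genes.

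Short upstream sequences were searched for set spellings of such elements. RefSeq promoter windows on GRCm38.p6, the assembly behind mm10, were matched by symbol for 8 of the 10 genes, all but Bhlhe40 and Per2, and gave 10 windows. The 250 bases before each start were searched on both strands for the E-box CACGTG, the D-box TTATGTAA or TTACGTAA, the cyclic AMP response element TGACGTCA and the ROR response element. The E-box, the cyclic AMP response element and TTACGTAA share the core ACGT, and none of the motifs contains another. The E-box was found in 5 of the 10 windows, in Tef (both windows), Bhlhe41, Per1 (1 of its 2 windows) and Cry1. Of all 32851 RefSeq windows, 6.02% held it. The D-box, the cyclic AMP response element and the ROR response element were found in none of the 10 windows, and in 0.931%, 1.55% and 0.332% of all windows. Such a match describes the letters and is not evidence of binding. The search covered only 250 bases and set spellings, so a missing match does not show that a gene lacks an element. The upstream stretches of 4 windows are shown because they set Per1 and Tef, which rose with trametinib, beside Cry1, which fell, and beside Nfil3. They are written 5′ to 3′ on the strand of the gene, with any base of a GENCODE exon of the gene left out and the E-box in capitals:
Per1 (chr11:69098699-69098947, plus strand): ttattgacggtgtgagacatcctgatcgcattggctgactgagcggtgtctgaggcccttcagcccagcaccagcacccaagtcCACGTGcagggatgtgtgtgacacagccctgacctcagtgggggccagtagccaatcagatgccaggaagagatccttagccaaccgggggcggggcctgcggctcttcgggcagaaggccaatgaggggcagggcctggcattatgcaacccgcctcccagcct
Tef (chr15:81811164-81811413, plus strand): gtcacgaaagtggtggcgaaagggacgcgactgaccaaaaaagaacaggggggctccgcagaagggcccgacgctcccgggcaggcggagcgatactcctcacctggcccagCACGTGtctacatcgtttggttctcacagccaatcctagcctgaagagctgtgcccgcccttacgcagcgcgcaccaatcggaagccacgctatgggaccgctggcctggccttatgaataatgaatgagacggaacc
Cry1 (chr10:85185065-85185304, minus strand): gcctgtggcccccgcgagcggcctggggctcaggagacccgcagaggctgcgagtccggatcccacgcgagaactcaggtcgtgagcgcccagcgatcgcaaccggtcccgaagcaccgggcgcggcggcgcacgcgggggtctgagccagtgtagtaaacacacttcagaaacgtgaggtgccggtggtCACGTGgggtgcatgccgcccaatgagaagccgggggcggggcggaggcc
Nfil3 (chr13:52981074-52981289, minus strand): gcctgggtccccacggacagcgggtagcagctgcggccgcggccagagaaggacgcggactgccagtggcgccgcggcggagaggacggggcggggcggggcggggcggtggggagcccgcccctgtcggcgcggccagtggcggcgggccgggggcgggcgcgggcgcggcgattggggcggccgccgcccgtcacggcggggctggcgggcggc
Counted from the RefSeq start, the E-box lies at −166 to −161 in Per1, −138 to −133 in Tef and −60 to −55 in Cry1. Any link between the E-box and the direction of change was not tested.

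Library totals ran from 17453778 to 19648467 counts. On the first principal component, vehicle replicate 3 lay at −14.7, between the other vehicle libraries (−34.8 and −33.9) and the trametinib libraries (23.2 to 31.7). All 8 macrophage markers were detected, with summed levels of 15783 to 17563 CPM (counts per 1000000 counts of the TMM-scaled library) in vehicle and 14767 to 16402 CPM with trametinib; Mertk and Cd14 rose and Adgre1 and Itgam fell. Marker lists of lymphocytes (B, T and NK cells), granulocytes (neutrophils, eosinophils, mast cells), dendritic cells, resident macrophages, and mesothelium with fibroblasts each summed to at most 21.2 CPM in any library. None of their tested genes passed, and Retnlg, Ear1, Mcpt4 and Msln were at 0 in every library. Of these lists only the dendritic cell sum was separate between groups, at 1.40 to 2.23 CPM in vehicle and 2.34 to 3.98 CPM with trametinib. Only 1 gene of that list was tested. The part of these cell types in the results was not tested.

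Of the 9 genes other than Nfil3, 5 rose with trametinib (Dbp, Per1, Nr1d2, Tef and Bhlhe40), 1 fell (Cry1) and 3 did not pass (Bhlhe41, Per2 and Nr1d1), at an adjusted p under 0.05 in edgeR's quasi-likelihood test. Among all 11286 genes tested, 34.3% were called, 15.8% higher and 18.4% lower. The median log2 fold change of the 9 genes was 0.33, against −0.01 over all genes tested. Because the list was drawn up with earlier results known, these counts are a description and not independent evidence of a direction. Without vehicle replicate 3 the counts were again 5 and 1. Without vehicle replicate 1, vehicle replicate 2, trametinib replicate 1 or trametinib replicate 2 the risers numbered 4, Bhlhe40 being lost each time. In bulk RNA, fewer cells expressing a gene and less RNA per cell cannot be told apart.

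**Figure D1:**
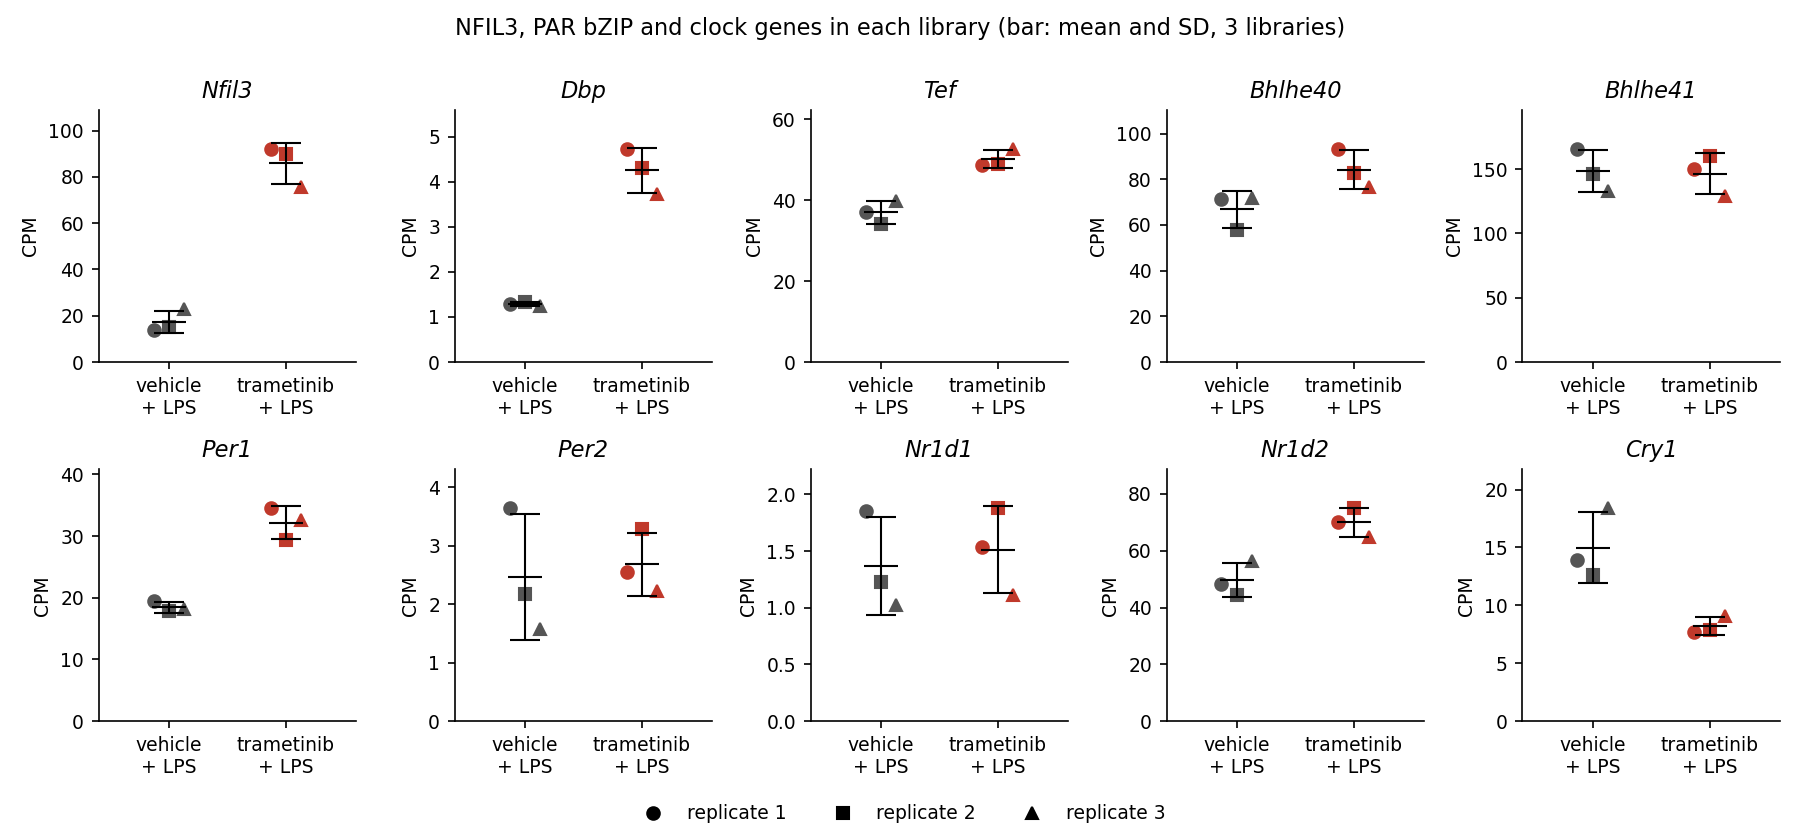
CPM of each of the 10 genes (vertical axes, from 0) in the 3 vehicle and 3 trametinib libraries, with replicate numbers as symbols and the mean and SD as bars. Groups are separate for Nfil3, Dbp, Tef, Bhlhe40, Per1, Nr1d2 and Cry1, and overlap for Bhlhe41, Per2 and Nr1d1.

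Nfil3 encodes a basic leucine zipper repressor (ENSMUSG00000056749, mm10 chromosome 13, 52967209 to 52981073). It stood at 14.0, 15.2 and 22.9 CPM in vehicle replicates 1, 2 and 3 and at 92.2, 89.7 and 75.7 CPM in trametinib replicates 1, 2 and 3. The groups were far apart, and within each group replicate 3 lay nearest to the other group. The mean was 17.4 ± 4.8 CPM in vehicle and 85.9 ± 8.87 CPM with trametinib (SD, n = 3 per group), a fitted 4.94-fold difference (log2 fold change 2.31, SE 0.19). Between libraries of the same replicate number the fold was 6.57, 5.91 and 3.31. Leaving out vehicle replicate 3 gave a log2 fold change of 2.56, and leaving out any other single library gave 2.17 to 2.39.

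The 3 genes whose profile over the 6 libraries lay closest to that of Nfil3 were Gpr35, a G protein-coupled receptor gene, Hp, which encodes the haemoglobin-binding protein haptoglobin, and Inpp5j, an inositol phosphatase gene. Closeness was the root mean square difference of log2 CPM after each gene was centred on its own mean, and came to 0.143, 0.151 and 0.180. The comparison took in 8577 genes with a mean of at least 5 CPM, which left out Dbp, Per2 and Nr1d1; of the 6 other members in it, Per1 was the nearest, at rank 321 (0.802). Like Nfil3, Hp was higher in vehicle replicate 3 (63.1 CPM) than in vehicle replicates 1 and 2 (32.4 and 35.9 CPM), and stood at 162 to 205 CPM with trametinib. The difference between the groups, for which Nfil3 was chosen, is part of this measure.

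The activators that share the D-box with NFIL3 rose too. Dbp (ENSMUSG00000059824, chromosome 7, 45705088 to 45710203) was scarce, with 23, 24 and 23 counts in vehicle replicates 1 to 3 and 80, 80 and 67 with trametinib. In CPM these were 1.29, 1.34 and 1.24 against 4.73, 4.30 and 3.73, so that every trametinib library lay above every vehicle library. Dbp rose 3.28-fold (log2 fold change 1.71, SE 0.18, adjusted p 0.000440). Dbp shares 539 exon bases with Sphk2, a sphingosine kinase gene on the opposite strand with many more reads, and without a stated strand setting their reads cannot be fully told apart. Sphk2 stood at 118 to 152 CPM in vehicle and 143 to 173 CPM with trametinib, with no call (adjusted p 0.174, log2 fold change 0.21).

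Tef (ENSMUSG00000022389, chromosome 15, 81802421 to 81826863), the other PAR bZIP activator, had 37.1, 34.2 and 39.9 CPM in the vehicle libraries and 48.8, 48.9 and 52.7 CPM in the trametinib libraries. The groups did not overlap, and the 1.35-fold rise (log2 fold change 0.44, SE 0.08) passed with an adjusted p of 0.00374. The third PAR bZIP gene, Hlf, had 0 counts in all 6 libraries, where 3 counts would correspond to 0.161 to 0.177 CPM. Per length of exon, Tef was 11.0 ± 1.25 times as abundant as Dbp in vehicle and 4.54 ± 0.751 times with trametinib.

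Set against the activators within each library, where library scaling cancels, the level of Nfil3 per kilobase of exon was 1.34, 1.56 and 2.06 times the sum of Dbp and Tef in the vehicle libraries. With trametinib it was 5.85, 5.79 and 4.70 times that sum. The ratio was thus higher in every trametinib library, with means of 1.65 ± 0.366 and 5.45 ± 0.645. This is a ratio of transcripts, contains the gene chosen for its rise, and says nothing of the proteins. Its level rests on the merged exon lengths. In CPM, Nfil3 (14.0, 15.2 and 22.9) lay below Tef alone (37.1, 34.2 and 39.9) in every vehicle library.

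**Figure D2:**
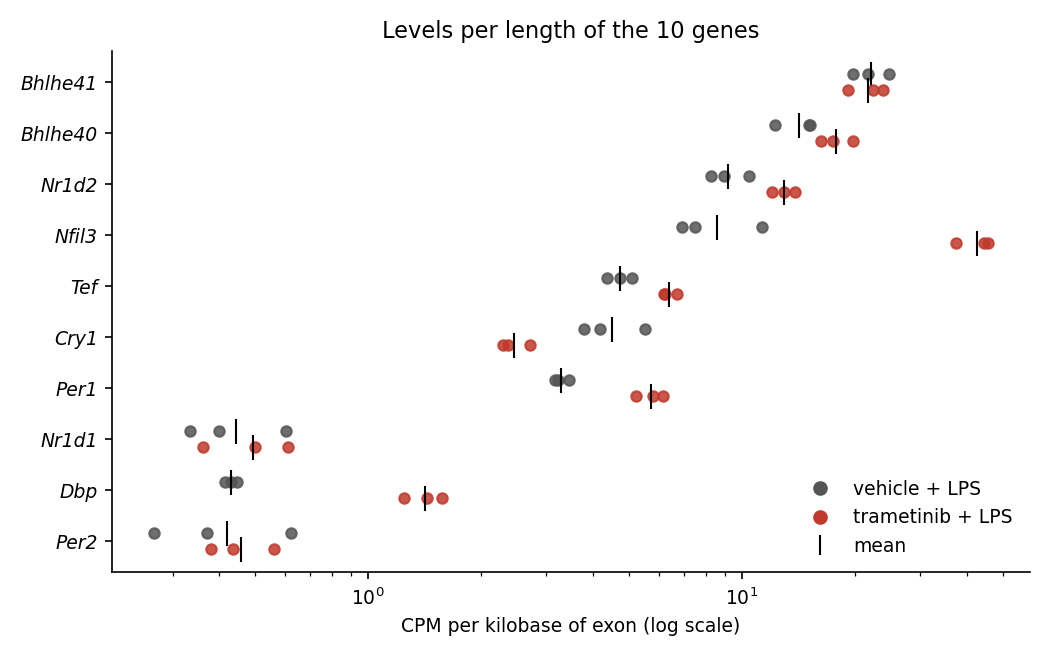
CPM per kilobase of exon (horizontal log axis) for the 10 genes, with 1 point per library and a tick at each group mean, ordered by the vehicle mean. Nfil3 has rank 4 in vehicle (8.56) and rank 1 with trametinib (42.4), whereas Nr1d1, Dbp and Per2 lie together at the low end in vehicle. The ranks rest on the merged exon lengths.

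Levels per length gave the order of the 10 genes. In vehicle Bhlhe41 was highest at 22.1 ± 2.46 CPM per kilobase, followed by Bhlhe40 (14.2 ± 1.70), Nr1d2 (9.20 ± 1.12), Nfil3 (8.56 ± 2.37), Tef (4.71 ± 0.360), Cry1 (4.49 ± 0.914) and Per1 (3.28 ± 0.155). Nr1d1, Dbp and Per2 were lowest, at 0.445 ± 0.140, 0.431 ± 0.0161 and 0.421 ± 0.182. The ranges over the 3 vehicle libraries overlapped between Nr1d2 and Nfil3, between Tef and Cry1 and between the neighbours among the lowest 3, and not between other neighbours. With trametinib Nfil3 was highest at 42.4 ± 4.38 CPM per kilobase, above Bhlhe41 at 21.8 ± 2.35, and Dbp (1.42 ± 0.168) was separate from Nr1d1 (0.491 ± 0.125) and Per2 (0.458 ± 0.0921). There Bhlhe41 and Bhlhe40 (17.9 ± 1.82) overlapped, as did Nr1d1 and Per2. This order rests on the merged exon lengths, and Nfil3 was chosen for its rise. In CPM, Nfil3 (92.2, 89.7 and 75.7) lay below Bhlhe41 (150, 160 and 129) in every trametinib library.

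Bhlhe40 and Bhlhe41 encode closely related E-box repressors. Bhlhe40 (ENSMUSG00000030103, chromosome 6, 108660629 to 108666925) stood at 71.2, 57.6 and 71.6 CPM in vehicle and at 93.4, 82.6 and 76.5 CPM with trametinib. It rose 1.26-fold (log2 fold change 0.33, SE 0.11, adjusted p 0.0381), the smallest of the changes that passed among the 9 genes. That call was lost without vehicle replicates 1 and 2 (adjusted p 0.0597 and 0.118) and likewise without either trametinib replicate 1 or 2 (0.153 and 0.0901), and over all alternatives the adjusted p lay between 0.0207 and 0.153. In the pair of libraries numbered 3 the fold was 1.07, against 1.31 and 1.43 in the other pairs. Bhlhe41 (ENSMUSG00000030256, chromosome 6, 145858243 to 145865558) had 166, 146 and 133 CPM in vehicle and 150, 160 and 129 CPM with trametinib. Its groups overlapped almost wholly, its log2 fold change was −0.02 (SE 0.11, adjusted p 0.909), and the 95% interval of the fold ran from 0.834 to 1.17, below the 1.26-fold estimate of Bhlhe40. The interval of Bhlhe40, 1.07-fold to 1.49-fold, overlapped that of Bhlhe41, and the difference between both genes was not tested. Bhlhe41 shares 1280 exon bases with Gm43909, a gene on the opposite strand with no entry in the count table. Any share of Gm43909 reads in the level of Bhlhe41 was not measured.

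Among the period genes, whose proteins form the repressing complex with CRY, Per1 (ENSMUSG00000020893, chromosome 11, 69095217 to 69109960) had 19.5, 17.8 and 18.2 CPM in vehicle and 34.6, 29.3 and 32.6 CPM with trametinib. The spread within each group was small beside the gap between them, and the rise of 1.74-fold (log2 fold change 0.80, SE 0.09) had an adjusted p of 0.000460. All 3 same-numbered pairs gave a similar fold, from 1.65 to 1.80. Per2 (ENSMUSG00000055866, chromosome 1, 91415982 to 91459324) had only 65, 39 and 29 counts in vehicle and 43, 61 and 40 with trametinib, or 2.46 ± 1.07 and 2.68 ± 0.539 CPM. Its log2 fold change of 0.13 (SE 0.31) did not pass (adjusted p 0.779), and its interval of 0.672-fold to 1.78-fold includes the fold of Per1; the difference between the genes was not tested.

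The nuclear receptor genes Nr1d1 and Nr1d2 encode REV-ERBα and REV-ERBβ, haem-binding repressors. Nr1d2 (ENSMUSG00000021775, chromosome 14, 18204054 to 18239127) had 48.3, 44.6 and 56.4 CPM in vehicle and 70.0, 75.1 and 65.0 CPM with trametinib. The groups were separate and Nr1d2 rose 1.41-fold (log2 fold change 0.49, SE 0.10, adjusted p 0.00529). Nr1d1 (ENSMUSG00000020889, chromosome 11, 98767932 to 98775333) had few counts, with 33, 22 and 19 counts in vehicle and 26, 35 and 20 with trametinib. Its log2 fold change of 0.15 (SE 0.31) did not pass (adjusted p 0.743), and its interval of 0.684-fold to 1.79-fold includes the fold of Nr1d2. It shares 263 exon bases with Thra, a thyroid hormone receptor gene on the opposite strand, which stood at 4.18 ± 1.45 CPM in vehicle and 5.19 ± 0.203 CPM with trametinib and did not pass (adjusted p 0.344). Per length, Nr1d2 exceeded Nr1d1 in every library of both groups.

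Cry1, the gene of a cryptochrome that represses CLOCK and BMAL1, was the member that fell (ENSMUSG00000020038, chromosome 10, 85131700 to 85185064). It had 13.9, 12.6 and 18.4 CPM in vehicle and 7.69, 7.90 and 9.08 CPM with trametinib, so that the highest trametinib library lay below the lowest vehicle library. The log2 fold change was −0.87 (SE 0.15, adjusted p 0.00321), a 1.82-fold fall from 15.0 ± 3.05 to 8.22 ± 0.749 CPM. Vehicle replicate 3, with 18.4 CPM, was the highest of all; leaving it out gave −0.69 on the log2 scale (edgeR adjusted p 0.00136). Relative to Cry1 and per length, Per1 was 0.830, 0.837 and 0.584 times as abundant in the vehicle libraries and 2.67, 2.20 and 2.13 times in the trametinib libraries. Per length, Per1 thus stood below Cry1 in vehicle and above it with trametinib. The order in vehicle rests on the merged exon lengths. In CPM, Per1 had 19.5, 17.8 and 18.2 in the vehicle libraries, above Cry1 in replicates 1 and 2 and close to it in replicate 3.

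**Figure D3:**
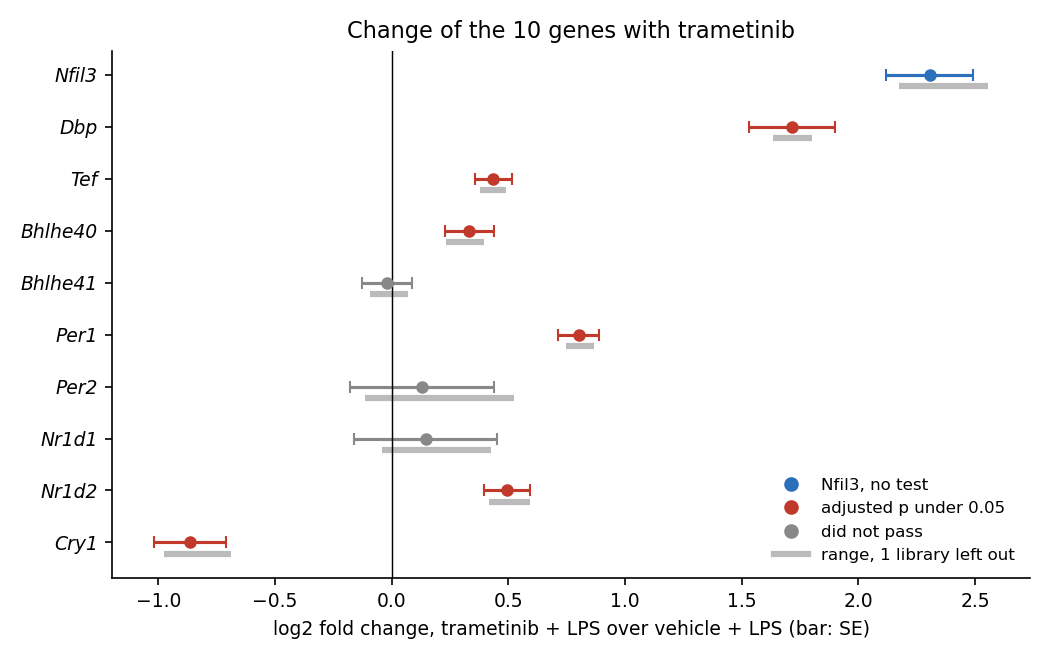
Log2 fold change, trametinib over vehicle, with SE (horizontal axis) for the 10 genes; grey bands give the range when each library is left out in turn. Dbp, Tef, Bhlhe40, Per1 and Nr1d2 lie above 0 and Cry1 below, Nfil3 is drawn without a test, and the bands of Bhlhe41, Per2 and Nr1d1 cross 0.

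Vehicle replicate 3 did not lie on the trametinib side for all of these genes. Of the 7 genes with separate groups, it lay nearer to trametinib than both other vehicle libraries for 4 (Nfil3, Tef, Bhlhe40 and Nr1d2), between them for Per1, and farther away for Dbp and Cry1. Cry1 stood at 18.4 CPM there against 13.3 CPM on average in the other vehicle libraries. Dbp had 23 counts there against 23 and 24 in the other vehicle libraries, so its position is not resolved. Groups that do not overlap were seen in 49.3% of all genes tested.

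Other parts of the clock were read from lists outside the 10 genes. Of 11 other core clock genes, 7 passed the filter on low counts, with 1 gene higher, 0 lower and 6 not past the threshold. Over all 11286 genes tested, 15.8% were called higher and 18.4% lower, so counts from so few genes are a description only. The median log2 fold change of the 7 genes was 0.16, against −0.01 over all genes tested. No gene of the list fell at an unadjusted p under 0.05 either, with edgeR, and 1 gene in all was called by DESeq2 and 1 by limma-voom. Rora, which encodes an activator that competes with the REV-ERB receptors, rose from 10.4, 10.8 and 15.1 CPM to 15.6, 17.3 and 16.4 CPM (log2 fold change 0.44, SE 0.14, adjusted p 0.0417). Vehicle replicate 3 nearly reached the trametinib level. The Rora call was lost without vehicle replicate 1 or 2 (adjusted p 0.143 and 0.135) and without trametinib replicate 1, 2 or 3 (0.0861, 0.131 and 0.0863), and over all alternatives the adjusted p lay between 0.000946 and 0.143. With the replicate number as a block 2 genes of the list passed, the added gene being Timeless (adjusted p 0.0435, against 0.137 without the block).

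The positive arm of the clock showed no change that passed. Clock had 42.3 ± 5.28 CPM in vehicle and 44.0 ± 3.97 CPM with trametinib (log2 fold change 0.06, adjusted p 0.721), with an interval of 0.878-fold to 1.23-fold. Arntl, the BMAL1 gene and a target of the REV-ERB receptors, had 4.38 ± 1.04 and 4.90 ± 0.729 CPM (log2 fold change 0.16, adjusted p 0.559; interval 0.819-fold to 1.53-fold). Cry2, the other cryptochrome gene, had 8.89 ± 0.671 and 9.19 ± 0.309 CPM, and its interval of 0.875-fold to 1.22-fold lies wholly above the 0.549-fold estimate of Cry1, a difference that was not itself tested. Per3, another period gene, was higher in all trametinib libraries (5.80 to 6.35 CPM) than in any vehicle library (4.13 to 5.46 CPM) and did not pass (adjusted p 0.126). Rorb, Npas2 and Arntl2 were too low to be tested.

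Among enzymes that act on PER and CRY proteins, no change passed the test. Of 9 listed genes 8 were tested, and none passed with edgeR, DESeq2 or limma-voom. With edgeR 1 of them, Gsk3b, was lower at an unadjusted p under 0.05. Over all 11286 genes tested, edgeR called 34.3%, 15.8% higher and 18.4% lower. The median log2 fold change of the 8 genes was 0.04, against −0.01 over all genes tested. Csnk1d and Csnk1e, kinases that mark PER proteins for destruction, had intervals of 0.933-fold to 1.16-fold and 0.912-fold to 1.19-fold. Gsk3b, a kinase with several clock substrates, had 99.2 ± 3.31 and 88.2 ± 1.58 CPM (log2 fold change −0.17, adjusted p 0.0540), and with the replicate block an adjusted p of 0.0478, the only gene of this list called there.

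**Figure D4:**
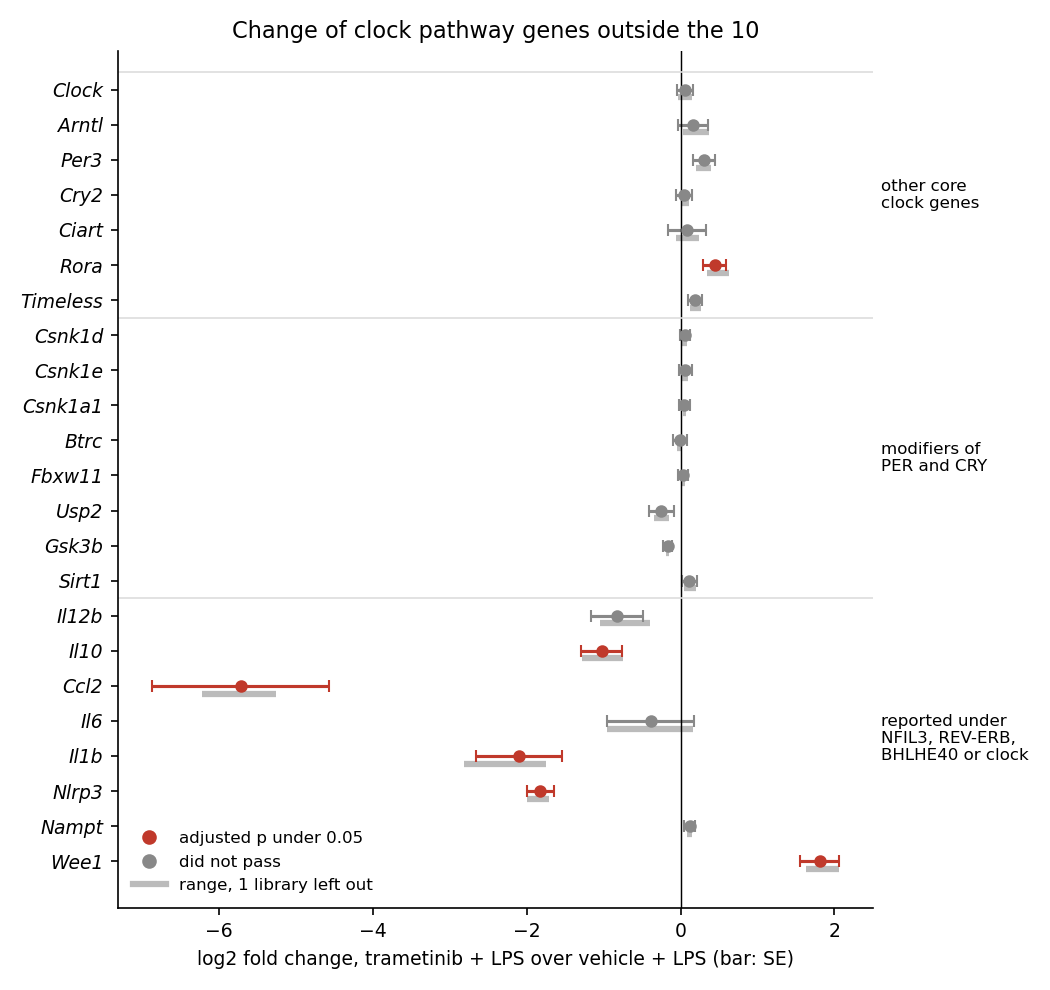
Log2 fold change, trametinib over vehicle, with SE (horizontal axis) for the tested genes of 3 lists outside the 10 genes; red points passed at an adjusted p under 0.05 and grey bands give the range when each library is left out. Rora is the only red point among the core clock genes, none of the modifiers of PER and CRY is red, and Wee1 is the only red point above 0 in the lowest block.

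Genes reported to lie under the control of NFIL3, the REV-ERB receptors, BHLHE40 or the clock were listed with earlier results of these data known. Of 10 genes 8 were tested, of which 1 rose, 4 fell and 3 did not pass, with a median log2 fold change of −0.93. Among all 11286 genes tested, 34.3% were called, 15.8% higher and 18.4% lower. The counts of this list are a description and not independent evidence of a direction. The riser was Wee1, a cell cycle kinase gene driven by CLOCK and BMAL1 in liver, with 6.11, 5.80 and 9.29 CPM in vehicle and 25.7, 30.7 and 18.1 CPM with trametinib (3.51-fold, log2 fold change 1.81, SE 0.25, adjusted p 0.00225). Nlrp3, an inflammasome sensor gene repressed by REV-ERBα, fell from 303, 295 and 199 CPM to 70.4, 69.1 and 85.9 CPM (log2 fold change −1.82, SE 0.18, adjusted p 0.000502). Il10, which BHLHE40 represses in lymphocytes, had a log2 fold change of −1.03 and an adjusted p of 0.0235. Ccl2, a REV-ERBα target, fell to 1.24 to 1.42 CPM from 89.2, 107 and 11.7 CPM (adjusted p 0.0222, log2 fold change −5.72 with an SE of 1.15). The other gene that fell was Il1b, whose adjusted p was 0.0419 and became 0.125 with the replicate block. The calls of Il10, Ccl2 and Il1b each failed in at least 4 of the alternatives, and the number of genes called in this list was 3, 2, 2, 2 and 3 without vehicle replicate 1, vehicle replicate 2, trametinib replicate 1, trametinib replicate 2 and trametinib replicate 3.

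Il12b, which NFIL3 represses in macrophages, stood at 81.7, 66.6 and 151 CPM in vehicle and at 47.2, 59.0 and 62.5 CPM with trametinib. Its groups did not overlap, and its log2 fold change of −0.83 (SE 0.34) did not pass (adjusted p 0.123). Without vehicle replicate 3, which was the highest, its log2 fold change was −0.40 with an adjusted p of 0.0489. Nampt, a clock-driven enzyme gene of NAD synthesis, was abundant and did not pass (795 ± 22.2 and 864 ± 37.6 CPM, adjusted p 0.229). Il6 had overlapping groups and an adjusted p of 0.641, which became 0.00665 with the replicate block (log2 fold change −0.39 in both fits). Cx3cr1 and Mmp9, which the REV-ERB receptors repress in macrophages, were too low to be tested, with 19 and 16 counts in the vehicle libraries together and 5 and 2 in the trametinib libraries.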

How the data were processed

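Total RNA of 6 macrophage cultures, 3 given vehicle and LPS and 3 trametinib and LPS, was sequenced after removal of ribosomal RNA. The authors deposited raw counts of reads per gene; the submitters' processing notes name R 3.6.0, DESeq2 1.24.0, HISAT2 2.1.0 and featureCounts 1.6.4, with mm10 as the build. For the annotation, the strand setting and multimapped reads, the choice is not given in the sources used here. Of 25354 entries, 310 repeats were dropped, and 25033 of 25044 genes matched GENCODE M21.

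Groups came from the labels. edgeR 4.0.16 (filterByExpr, TMM, robust quasi-likelihood fit, group only) tested 11286 genes with Benjamini-Hochberg adjustment over all of them. The SE is the absolute log2 fold change over the root of the F statistic; CPM are relative to the TMM-scaled library; lengths are merged GENCODE exons. Library totals, from 17453778 to 19648467, limit genes of few counts, such as Dbp, Per2 and Nr1d1.

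Deviations from group means correlated at 0.346, 0.418 and 0.307 within same-numbered pairs of libraries, and at −0.258 to −0.0754 across numbers. Centring on the mean of 3 libraries ties these values together, so the negative ones add no separate support for a pairing. The labels state no pairing, so the replicate block is given only as an alternative. Alternatives were 2 other scalings, 2 other filters, DESeq2 1.42.0, limma-voom (limma 3.58.1), the replicate block and each library left out. Members, gene lists and motifs were chosen with earlier results of these data known; some genes of these lists are not reported here. Named genes are the 10 members, up to 4 genes per list past the threshold by smallest p, listed genes at 0, and the 3 profiles nearest to Nfil3 (pseudocount 0.5, mean of at least 5 CPM); other listed genes were named after their values were seen. R 4.3.3, Python 3.11.15, pandas 2.3.3, NumPy 2.4.6 and matplotlib 3.10.9 were used.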

Additional observations from a re-analysis of the deposited data

How the results depend on the processing

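The number of genes higher among the 9 other than Nfil3 was 5 under every alternative that kept all libraries and 4 to 5 when single libraries were left out, and the number lower was 1 throughout. Dbp, Tef, Per1, Nr1d2 and Cry1 kept their call in all 13 alternatives. Genes called over the whole table ranged from 2428 to 4663 with single libraries left out. Among other core clock genes the count was 2 with the replicate block and 0 to 1 with single libraries left out; among modifiers of PER and CRY proteins it was 1 with the replicate block; among genes reported under clock factors it was 2 to 5 with single libraries left out. The block ended the call of Il1b (adjusted p 0.125) and gave Il6 an adjusted p of 0.00665; beside these, Timeless and Gsk3b, it changed no other call among the listed genes. With single libraries left out, log2 fold changes near 0 crossed it: −0.092 to 0.070 for Bhlhe41, −0.11 to 0.52 for Per2, −0.042 to 0.42 for Nr1d1, −0.033 to 0.15 for Clock, −0.057 to 0.24 for Ciart, −0.052 to 0.025 for Btrc and −0.96 to 0.16 for Il6. Btrc also turned to 0.0052 with DESeq2 size factors, 0.0041 with a filter of 1 CPM and 0.0051 with DESeq2. Ccl2 did not pass with limma-voom (adjusted p 0.0609), nor Il1b without a filter on low counts (0.0939). The causes were not tested. Depth limits genes such as Dbp, Per2, Nr1d1 and Ciart, with fewer than 100 counts per library.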
